A study of Bos grunniens and Bos grunniens x Bos taurus with 12 samples.

Results

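The cytosolic ribosomal proteins that carry a gene symbol were followed in ribosome profiling (Ribo-seq) of the testis of yak and of cattle-yak. Members were the genes whose symbol starts with RPL, RPS or RPLP and a digit, without the RPS6K kinases, and 28 of the 20965 genes in the deposited tables met this rule. Of these, 18 encode proteins of the large subunit and 9 encode proteins of the small subunit. The remaining gene, RPS19BP1, meets the rule by its name and encodes a nucleolar protein that binds a ribosomal protein. The 28 genes are a small part of the ribosomal protein rows, because another 145 rows are described as a cytosolic ribosomal protein and carry no symbol. One member, RPS10-NUDT3, is named as a readthrough of RPS10 with its neighbour, and its values were taken as the table gives them.

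In Ribo-seq, the stretches of mRNA covered by ribosomes survive nuclease digestion and are sequenced as ribosome footprints (RFs). A value here measures the ribosomes on the mRNA of a gene, which depends on the amount of mRNA and on the ribosomes per mRNA. RNA-seq was not used here, so a change in mRNA and a change in its translation cannot be told apart. Testes came from 3 yaks of 6 months (yak 6M), 3 yaks of 18 months (yak 18M), 3 yaks of 4 years (yak 4Y) and 3 cattle-yaks for which the labels give 4 years. The labels give castration for all animals, whereas the methods give euthanasia for the yaks of 4 years. The yaks are Bos grunniens, and the cattle-yaks are hybrids that the methods describe as offspring of Jersey bulls and Gannan yak cows, whose males are sterile. No animal was treated, and each library was made from whole testis, so that fewer cells of a type and fewer RFs per cell cannot be told apart in any value below.

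A ribosome joins a small subunit, which decodes the mRNA, with a large subunit, which forms the peptide bond. Each subunit holds many proteins, most of them needed in about equal numbers, and a cell that grows or divides makes many of them. In the testis their supply has a further side, because genes on the X chromosome are silenced during male meiosis and some X-linked ribosomal protein genes have autosomal copies that are used in germ cells. RPL10L, the copy of X-linked RPL10, is known as such a gene in mice, while RPL3L, the paralog of RPL3, is known from heart and skeletal muscle. No row here carries the symbol RPL10, and the row named RPL10L may hold reads of either gene.

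Total counts on genes ran from 25816963 to 37167651 per library in yak 6M, 21309151 to 24542362 in yak 18M, 16304058 to 17862516 in yak 4Y and 38437889 to 52616039 in cattle-yak. The lowest count of any member in any library was 35, for RPL3L, and all 28 members passed the filter on low counts in every comparison. Libraries were checked against markers of the cells of the testis, and spermatid markers set 1 of them apart from its group. The summed FPKM (fragments scaled to gene length and library size) of 5 markers of elongating spermatids (TNP1, ODF1, GAPDHS, SPEM1 and TSSK6) was 8492 to 11524 in yak 4Y. It was 0.96 to 1.44 in yak 6M and 2.99 to 27.96 in cattle-yak. In yak 18M it was 2.78 in replicate 1, 6831 in replicate 2 and 15.0 in replicate 3, so yak 18M replicate 2 was closer to the adult yaks than to the other libraries of its age. Markers of Sertoli cells, 7 of 9 in the tables, summed to 6166 to 7611 in yak 6M, 627 to 866 in yak 4Y and 1158 to 1429 in cattle-yak. In yak 18M they summed to 6259, 2008 and 2943 in replicates 1, 2 and 3, so replicate 1 lay in the range of yak 6M. Yak 18M replicate 3 had the highest sums of its group for spermatogonia (2103, against 832 and 1126) and peritubular myoid cells (1266, against 408 and 494). The part that these differences in cell makeup have in the results below was not tested.

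The 28 genes covered more than 2 orders of magnitude in FPKM. RPLP1, an acidic protein of the stalk that recruits translation factors, had the highest mean over the 12 libraries with an FPKM of 697, followed by RPL32 with 630 and RPS3A with 546. RPL3L had the lowest mean with 1.88, after RPL26 with 47.3 and RPS19BP1 with 97.1. In each library the 28 genes together held 0.486 to 0.589% of the counts in yak 6M, 0.505 to 0.677% in yak 18M, 0.395 to 0.473% in yak 4Y and 0.585 to 0.656% in cattle-yak. The share was lower in every yak 4Y library than in any library of the other groups.

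**Figure D1:**
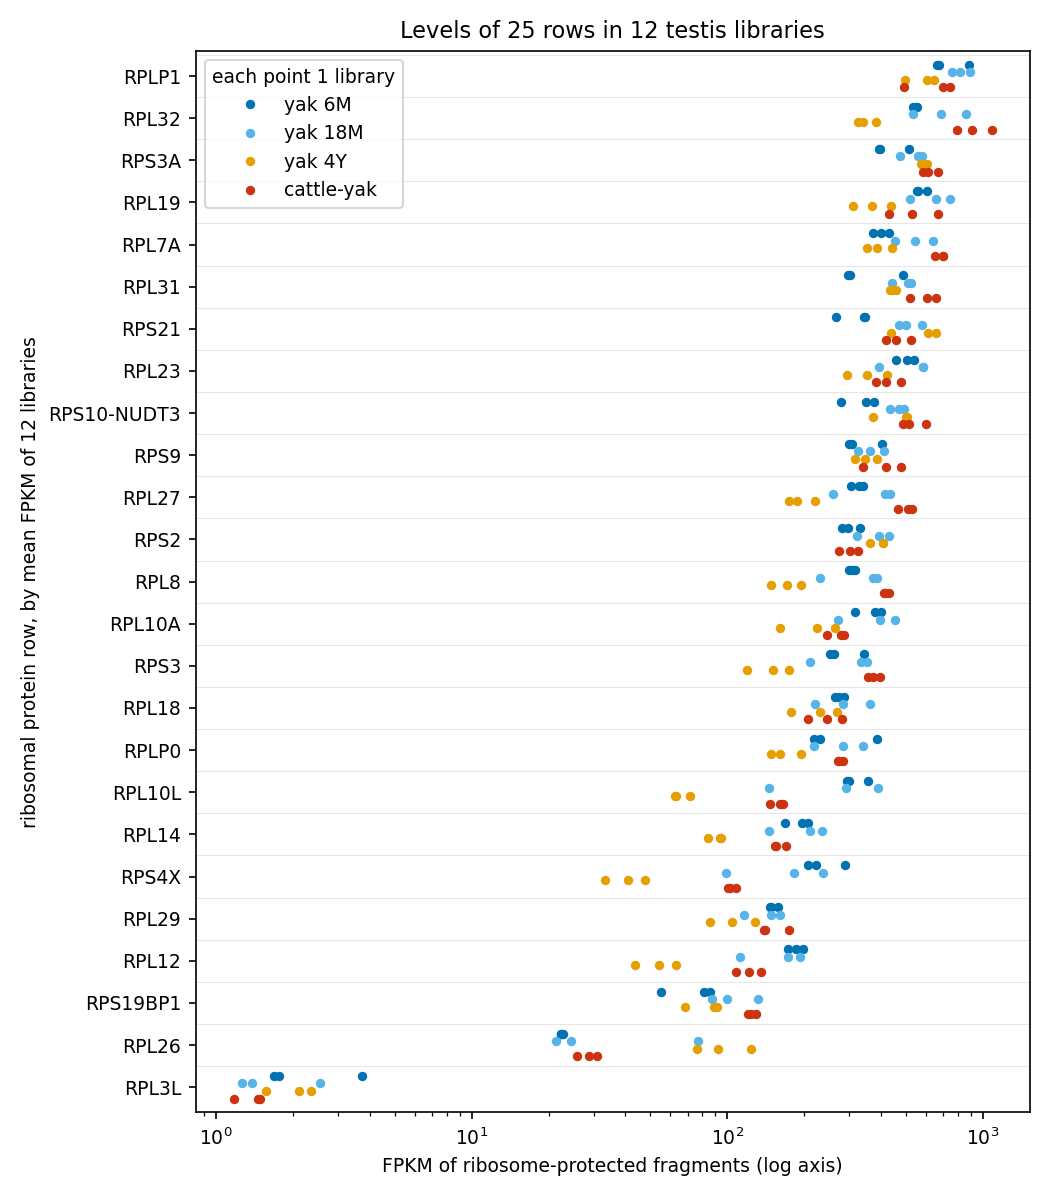
FPKM of 25 of the 28 genes (rows, ordered by the mean over 12 libraries) on a log axis, with 1 point per library and colours for the 4 groups of 3. The yak 4Y points of RPL10L, RPS4X and RPL12 lie far left of the other groups, and RPL26 is the gene whose yak 4Y points and 1 yak 18M point lie to the right.

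The named rows of proteins that are mostly needed in about equal numbers in 1 complex did not have equal RF levels. Levels were compared per length, as FPKM relative to the median of 26 members of the same library, which removes depth and scaling. RPL3L and RPS19BP1 were left out of this median. The SD of log2 FPKM over these 26 members was 0.90 to 0.95 in yak 6M, 0.87 to 1.03 in yak 18M, 1.07 to 1.12 in yak 4Y and 1.07 to 1.09 in cattle-yak, so that yak 4Y and cattle-yak overlapped. Leaving out RPL26 as well, which was chosen after its values were seen, the SD was 0.53 to 0.57 in yak 6M, 0.83 to 0.85 in cattle-yak and 1.07 to 1.11 in yak 4Y. In yak 18M it was 0.58, 0.80 and 0.67 in replicates 1, 2 and 3, and the highest of them belongs to the library with spermatid markers. These SDs run over genes, not animals, and were not tested. They use the named rows only. In yak 4Y, the named rows of RPS4X and RPL26 held on average 20.4% and 19.2% of the FPKM of all rows of their protein. The part that this split of reads between rows has in the SDs was not tested.

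A few named rows lay far below the others in yak 4Y. RPS4X, a small subunit protein encoded on the X chromosome in mammals, was at 72.2 to 82.1% of the median in yak 6M, 16.6 to 19.3% in yak 4Y and 24.5 to 28.1% in cattle-yak. The named row is only a part of S4, and all rows described as the S4 protein summed to 103 to 111%, 76.9 to 97.2% and 78.0 to 82.5% of the median in these groups. RPL10L was at 100.2 to 103% in yak 6M, 25.6 to 32.7% in yak 4Y and 39.1 to 41.7% in cattle-yak. RPL12, which lies at the base of the stalk, was at 56.4 to 61.7% in yak 6M and 17.7 to 28.2% in yak 4Y. For each of these named rows the group means were in the order yak 6M, yak 18M, cattle-yak and yak 4Y. The 3 cattle-yak libraries of each named row lay between yak 6M and yak 4Y without overlap. This did not hold for the sum of the S4 rows, where cattle-yak lay within the range of yak 4Y.

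Other genes ran the opposite way within the library, and several of them belong to the small subunit. RPS21 was at 93.4 to 116% of the median in yak 6M, 228 to 267% in yak 4Y and 111 to 136% in cattle-yak. RPS3A, a protein at the surface of the small subunit that binds initiation factors, was at 131 to 147% in yak 6M and 232 to 306% in yak 4Y. RPS10-NUDT3 was at 97.0 to 117% in yak 6M and 196 to 204% in yak 4Y. In yak 18M replicate 2, RPS21 was at 189% and RPS3A at 218%, against 121 to 141% and 122 to 136% in the other yak 18M libraries. The median itself was lower in yak 4Y, at 191 to 247 FPKM against 287 to 351 in yak 6M, so FPKM rose less than these percentages. The mean FPKM of RPS21, RPS3A and RPS10-NUDT3 was 320, 435 and 335 in yak 6M. In yak 4Y it was 570, 588 and 460.

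**Figure D2:**
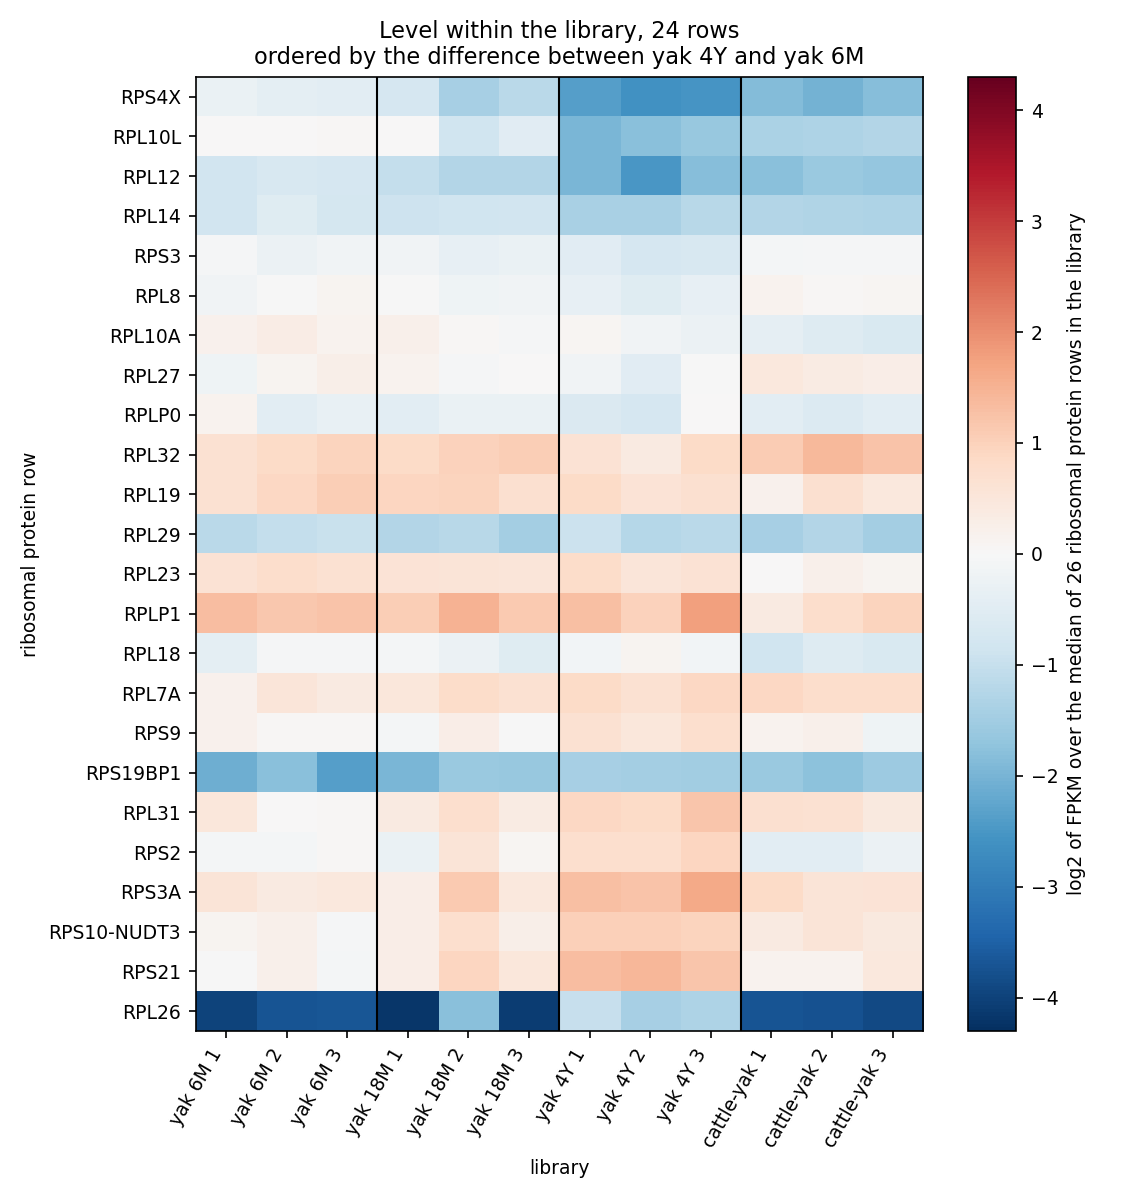
Level of 24 genes (rows) in 12 libraries (columns), as the log2 of FPKM over the median of 26 ribosomal protein genes in the same library; blue is below and red above the median. The rows are ordered by the difference between yak 4Y and yak 6M, so RPS4X, RPL10L and RPL12 stand at the top and RPS21 and RPL26 at the bottom; yak 18M replicate 2 resembles yak 4Y most clearly at RPL26.

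Whether the sterile hybrid differs from the fertile adult was asked by comparing cattle-yak with yak 4Y. The paper reports a higher alignment rate, a shorter main RF length and a higher share of RFs in coding sequence for cattle-yak than for yak. These library properties differ together with the genotype, and their part in the differences below was not tested. Most of the 28 members had higher RF levels in cattle-yak. With edgeR's quasi-likelihood test and Benjamini-Hochberg adjustment over 16498 genes, 17 of the 28 members were higher in cattle-yak at an adjusted p below 0.05, where 31.5% of all genes tested were. They were 12 proteins of the large subunit, 4 of the small subunit and RPS19BP1. Only RPL26 and RPS2 of the 28 were lower, where 34.2% of all genes were. The median log2 fold change was 0.53 over the members, 0.63 over the large subunit, 0.22 over the small subunit and -0.00 over all genes tested. Over all 17 settings of the test the members' median lay 0.41 to 0.73 above that of all genes, and no call changed direction under the 6 other scalings or tests.

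Of these members, 8 were also DTGs (differentially translated genes, with a log2 fold change of at least 1), which 17.1% of all genes tested were in this direction. RPL32 had FPKMs of 383, 324 and 342 in yak 4Y and 796, 1086.5 and 907 in cattle-yak. The lowest cattle-yak library was above the highest yak 4Y library, and the log2 fold change was 1.42 ± 0.15 (SE, n = 3 per group, edgeR adjusted p = 6.7e-05). RPL27 was at 221, 174 and 188 in yak 4Y and 512, 530 and 466 in cattle-yak, and rose by 1.38 ± 0.14 (edgeR adjusted p = 5.5e-05). Its groups did not overlap either.

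The same held for X-linked RPS4X and for RPL10L, which together with RPL12 were the least abundant of these 8. RPS4X was at 47.5, 41.0 and 33.3 FPKM in yak 4Y and 103, 101 and 108 in cattle-yak, and rose by 1.36 ± 0.16 on the log2 scale (edgeR adjusted p = 1.1e-04). With all S4 rows added the rise was 0.64, and it was no longer a DTG. RPL10L was at 63.2, 71.5 and 62.4 in yak 4Y and 147, 165 and 161 in cattle-yak, and rose by 1.27 ± 0.11 (edgeR adjusted p = 2.6e-05). Both genes thus had a higher RF level in the testes with the lower spermatid markers. RPL12, with 43.8 to 63.1 FPKM in yak 4Y and 108 to 135 in cattle-yak, rose by 1.07 ± 0.14. Further DTGs that rose were RPS3, a small subunit protein at the mRNA entry that also takes part in DNA repair, with 1.31 ± 0.17, and RPL8 with 1.30 ± 0.14.

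Of the stalk proteins, RPLP0, its anchor on the ribosome, was at 162, 149 and 194 FPKM in yak 4Y and at 271, 273 and 285 in cattle-yak. It rose by 0.70 ± 0.12 on the log2 scale (edgeR adjusted p = 0.0012). RPLP1, which binds to this anchor, was at 604, 496 and 645 FPKM in yak 4Y and at 495, 700 and 743 in cattle-yak. Its groups overlapped, and its log2 fold change of 0.19 ± 0.18 did not pass the test (edgeR adjusted p = 0.40). RPL23, which also restrains the p53 regulator MDM2, did not pass either, with 0.27 ± 0.17 (edgeR adjusted p = 0.19). RPS19BP1, with 68.1 to 91.6 FPKM in yak 4Y and 121 to 130 in cattle-yak, rose by 0.60 ± 0.15.

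Among the rises below a log2 fold change of 1 were those of RPL14 (0.82 ± 0.11), RPL7A (0.81 ± 0.14), RPL19 (0.55 ± 0.20), RPL29 (0.52 ± 0.18) and RPL31 (0.43 ± 0.13). Without cattle-yak replicate 2 the rises of RPL19, RPL29 and RPL31 were lost (0.37, 0.42 and 0.36), and 13 members were higher, where 29.7% of all genes were. Those of RPL19 and RPL29 were also lost without yak 4Y replicate 3 (0.49 and 0.44) and without yak 4Y replicate 2 (0.59 and 0.56), and that of RPL19 without cattle-yak replicate 3 (0.58). Of the 17 rises, 13 were called in all 6 fits that left out a library. FPKM did not overlap between the groups for 15 members that were higher in cattle-yak and 3 that were lower (RPL26, RPL3L and RPS2), where 34.3% and 36.8% of all genes tested did so.

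RPL26, which also binds p53 mRNA and lies at the exit of the peptide tunnel, was the exception. Its FPKM was 124, 91.8 and 76.1 in yak 4Y and 28.8, 31.1 and 25.9 in cattle-yak, and it fell by 1.76 on the log2 scale (SE 0.21, edgeR adjusted p = 1.3e-04). With the rows described as the same protein added, the fall was 0.45. RPL26 was the only member among the DTGs that were lower in cattle-yak, which made up 27% of all genes tested. RPS2, at the mRNA entry of the small subunit, was at 406, 407 and 362 FPKM in yak 4Y and 274, 303 and 325 in cattle-yak, and fell by 0.41 (SE 0.12, edgeR adjusted p = 0.013). The fall of RPS2 was lost without yak 4Y replicate 1 (-0.29) or without yak 4Y replicate 2 (-0.32), which left RPL26 as the only member that was lower.

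**Figure D3:**
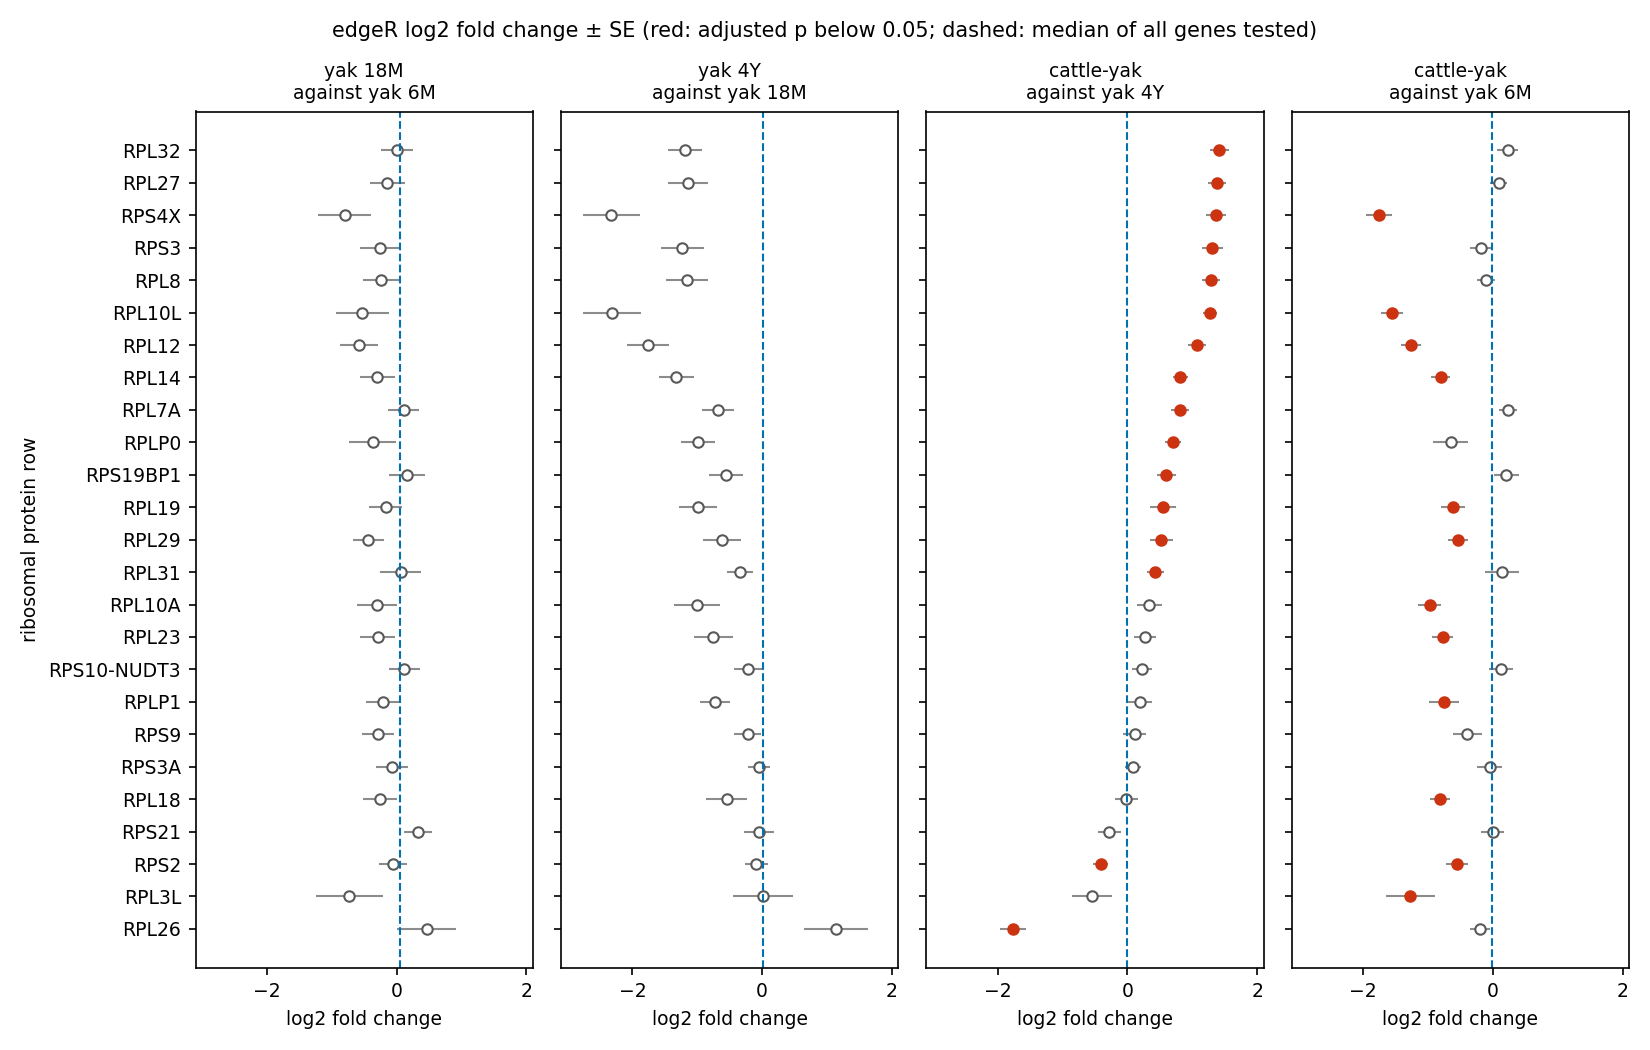
Log2 fold change ± SE of 25 of the 28 genes in 4 comparisons of 3 against 3 libraries, with genes that passed edgeR's test filled in red and the median of all genes tested as a dashed line. In cattle-yak against yak 4Y 14 genes are red to the right and 2 to the left; in yak 4Y against yak 18M most open points lie to the left, RPL26 to the right, and none passed.

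The comparisons of age ask how the same genes differ between juvenile, younger and adult testes. Between yak 18M and yak 6M no member passed edgeR's test, where 0.0202% of all genes tested passed as higher and 0.0471% as lower. None of the 28 had an unadjusted p below 0.05, where 25.8% of all genes did, and DESeq2 called none of them at an adjusted p below 0.05, although it called 6.2% of all genes as higher and 4.92% as lower. The median log2 fold change was -0.20 over the members and 0.05 over all genes. Library size in place of TMM moved the median of all genes to 0.42 and turned the members' median to 0.17, which left the members 0.25 below all genes. The SEs of the members' log2 fold changes were 0.22 to 0.52, and differences of that order could not be shown here. Without yak 18M replicate 2 still no member was called, where 0.226% and 0.279% of all genes were. Without yak 18M replicate 1 no member was called either, where 9.21% of all genes were called higher and 8.63% lower.

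The extremes of this comparison were again RPS4X at -0.80 ± 0.41, RPL3L at -0.73 ± 0.52 and RPL12 at -0.58 ± 0.29 on the low side. On the high side were RPL26 at 0.46 ± 0.46 and RPS21 at 0.33 ± 0.22. Without yak 18M replicate 2, RPL26 stood at -0.28 ± 0.21, and the values of RPS4X and RPL12 were -0.49 ± 0.32 and -0.35 ± 0.24. FPKM did not overlap for 5 members that were higher in yak 18M, among them RPL7A, RPS10-NUDT3, RPS19BP1 and RPS21, where 29.7% of all genes tested did so, and for none that was lower, where 8.05% did.

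From yak 18M to yak 4Y the members lay lower, but whether they were called depended on 1 library and on the test. With all 6 libraries edgeR called none of the 28, where it called 0 genes as higher (0%) and 0.0371% as lower of all genes tested. Of the 28, 16 had an unadjusted p below 0.05, where 35.4% of all genes did, and 26 had a log2 fold change below 0, where 49.7% of all genes did. The median was -0.74 over the members, -0.90 over the large subunit, -0.22 over the small subunit and 0.01 over all genes tested. DESeq2 called 10 members as lower, where it called 12.2% of all genes, and 8 of them as DTGs (10.2%). The fit over all 12 libraries called 16 as lower (21.6% of all genes) and RPL26 as higher (10.2%). Without yak 18M replicate 2, edgeR called 20 members as lower, where 26% of all genes tested were, and 12 of them as DTGs, where 18.5% were. In that fit RPL26 was the only member that was higher, where 30.2% of all genes tested were. The members' median lay 0.60 to 0.92 below that of all genes in all 17 settings, although library size alone moved the median of all genes to 0.19.

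RPL10L was at 390, 146 and 291 FPKM in yak 18M, against the 62.4 to 71.5 of yak 4Y given above. Its lowest yak 18M library was replicate 2, which still lay above every yak 4Y library. The log2 fold change was -2.31 ± 0.45 with an adjusted p of 0.069 by edgeR, and without replicate 2 it was -2.62 ± 0.23 with an edgeR adjusted p of 1.3e-04. Over its 16 alternatives the adjusted p ran from 1.3e-04 to 0.24. RPS4X was at 238, 98.7 and 183 FPKM in yak 18M, and its values were -2.33 ± 0.44 with all libraries and -2.61 ± 0.26 without replicate 2 (edgeR adjusted p = 0.069 and 2.1e-04, with a range of 2.1e-04 to 0.24 over the alternatives). With all S4 rows added it was -0.82 ± 0.28. RPL12 was at 192, 112 and 173 FPKM, and its values were -1.76 ± 0.32 and -1.97 ± 0.21. In all 3 genes yak 18M replicate 2 was the lowest of its group and came next to yak 4Y.

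RPL26 again ran the other way. Its FPKM in yak 18M was 21.5, 76.6 and 24.4, so replicate 2 lay at the lower end of the 76.1 to 124 of yak 4Y while the other libraries were at the level of yak 6M (22.3 to 22.8). The log2 fold change was 1.14 ± 0.50 with all libraries (edgeR adjusted p = 0.15) and 1.87 ± 0.27 without replicate 2 (edgeR adjusted p = 0.0012, with a range of 0.0012 to 0.87 over the alternatives). RPL26 was at 76.1 to 124 FPKM in the 4 libraries whose elongating spermatid markers summed to 6831 or more, and at 21.5 to 31.1 in the other 8. Whether RPL26 is read in spermatids was not tested. The log2 fold changes nearest 0 were those of RPL3L (0.01 ± 0.46), RPS21 (-0.04 ± 0.23), RPS3A (-0.05 ± 0.17) and RPS2 (-0.09 ± 0.18), and scaling by library size alone turned the last 3 to above 0. FPKM did not overlap for 15 members that were lower in yak 4Y, where 23.4% of all genes tested did so, and for none that was higher, where 31% did.

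**Figure D4:**
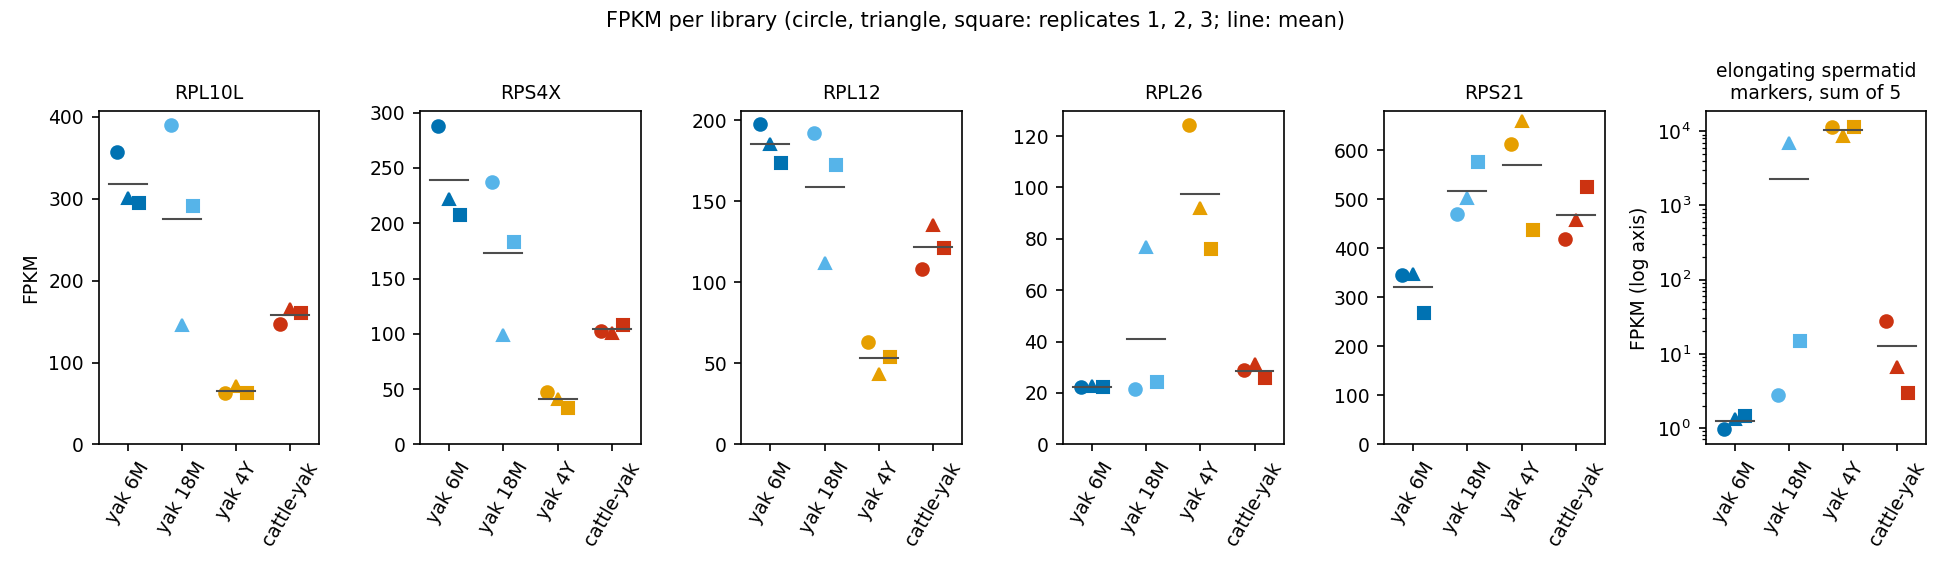
FPKM per library of RPL10L, RPS4X, RPL12, RPL26 and RPS21 on linear axes from 0, and the summed FPKM of 5 elongating spermatid markers on a log axis; each symbol is 1 library and each line a mean of 3. RPL10L, RPS4X and RPL12 are lowest in yak 4Y, RPL26 is highest there, and the triangle of yak 18M (replicate 2) moves with the marker panel.

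Cattle-yak was also set beside yak 6M, the other group with low spermatid markers in all 3 libraries, although age and genotype differ together here. This comparison shares its libraries with the comparisons above and is no independent support for them. EdgeR called 12 members as lower in cattle-yak, where 28.9% of all genes tested were, and none as higher, where 28.7% were. Of the 12, 10 belong to the large subunit and 2 to the small subunit. The most abundant single gene took up to 7.15% of the counts in yak 6M and at most 1.05% in cattle-yak, and the result depended on the scaling. Scaling by library size alone moved the median of all genes from -0.02 to 0.52, and then 4 members were lower (16.7% of all genes) and 11 higher (45.2%). The members' median lay 0.30 below that of all genes with TMM and 0.28 below with library size, but 0.11 above with limma on log2(FPKM + 1). FPKM was lower without overlap for 5 members (RPS4X, RPL10L, RPL3L, RPL12 and RPL10A), where 19% of all genes tested were, and higher for 13, where 50.8% were.

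The 4 members that were lower in cattle-yak under all 6 other scalings or tests were RPS4X, RPL10L, RPL12 and RPL10A. RPS4X had FPKMs of 288, 222 and 207 in yak 6M, all above the 101 to 108 of cattle-yak, and fell by 1.76 on the log2 scale (SE 0.20, edgeR adjusted p = 1.8e-04). With all S4 rows added it fell by 0.67 and was no longer a DTG. RPL10L was at 357, 301 and 295 in yak 6M and fell by 1.56 (SE 0.17, edgeR adjusted p = 1.5e-04). RPL12 was at 198, 185 and 174 and fell by 1.26 (SE 0.16, edgeR adjusted p = 3.1e-04). RPL10A, a protein of the L1 stalk, had FPKMs of 401, 378 and 315 in yak 6M and 287, 280 and 247 in cattle-yak, and fell by 0.98 (SE 0.17, edgeR adjusted p = 0.0017). RPS4X, RPL10L, RPL12 and RPL3L were the DTGs among the 12, where 19.7% of all genes tested were DTGs in this direction.

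Of the remaining members that were lower, RPL14, RPL18 and RPL23 (-0.80 ± 0.15, -0.82 ± 0.15 and -0.78 ± 0.17) were called in every fit that left out a library. With library size alone (-0.26, -0.28 and -0.23) and with limma at either pseudocount they were not called, and their FPKM overlapped between the groups. RPLP1 (-0.75 ± 0.23), RPL19, RPL29 and RPS2 were lost without cattle-yak replicate 1 (-0.59, -0.46, -0.48 and -0.49). Without cattle-yak replicate 3, RPL19, RPL29 and RPS2 were lost (-0.58, -0.48 and -0.60). RPS2 and RPL3L were lost without cattle-yak replicate 2 (-0.57 and -1.17), and RPL3L also without yak 6M replicate 3 (-0.85). Scaling by library size alone brought RPL29 to 0.005. Without yak 6M replicate 1, 3 members, among them RPL31, were higher, where 28.1% of all genes were. At the other end, RPL7A had a log2 fold change of 0.23 ± 0.14 and RPL32 of 0.23 ± 0.16, and neither passed. RPLP0 did not pass with -0.65 ± 0.27, nor did RPL26, with 22.3 to 22.8 FPKM in yak 6M and 25.9 to 31.1 in cattle-yak and a log2 fold change of -0.20 ± 0.15. Its direction turned with the scaling, since FPKM did not overlap and was higher in cattle-yak. With all L26 rows added it was called lower (-0.46, edgeR adjusted p = 0.023). Alternative fits of the named row alone gave a larger adjusted p, up to 0.73 with edgeR over all 12 libraries, and 1 of them called it higher.

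RPL3L and RPL10L, the paralogs, took very different shares of their pairs. RPL3L was at 1.17 to 3.74 FPKM in the 12 libraries, while rows described as the L3 protein summed to 229 to 419, so RPL3L made up 0.30 to 1.60% of the sum of both. This share was 0.56% ± 0.09 (SD, n = 3) in yak 4Y and 0.35% ± 0.05 in cattle-yak (exact permutation test, two-sided, p = 0.10, the smallest that 3 against 3 allows, 0.20 after adjustment over 8 tests). RPL10L, in contrast, made up 97.1 to 100% of the sum of its row and the row described as the L10 protein, which was at 2.17 FPKM or less in every library, and a further row described as L10-like was at 1.79 or less. The share was 97.5% ± 0.57 in yak 4Y and 99.9% ± 0.06 in cattle-yak (exact permutation test, two-sided, p = 0.10, adjusted p = 0.20). No row carries the symbol RPL10. The row named RPL10L was at 295 to 357 FPKM in yak 6M, where the elongating spermatid markers were at 0.96 to 1.44, and was lowest in yak 4Y, where they were highest. The tables do not tell whether it holds reads of RPL10L, of RPL10 or of both.

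Over the 12 libraries, the log2(FPKM + 1) of RPL10L was most like that of RPS4X (Pearson's r = 0.99), RPL12 (0.97) and RPL14 (0.95), and least like that of RPL26 (-0.90). RPL3L was most like RPL10L, RPS4X and RPL18, with r of only 0.13, 0.12 and 0.11. These correlations describe 12 libraries that share the depth and the cell makeup of their groups, and they were not tested. They use the named rows only, and those of RPS4X and RPL26 are only a part of the rows of their protein.

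Genes of ribosomal proteins have many near-identical copies, and reads can be split between them. Of the 28 members, 15 had at least 1 row without a symbol described as the same protein, 28 rows in all without the L3 and L10 rows above, and 6 of these rows exceeded 10% of the mean FPKM of their member in a group. Among these members were RPS4X and RPL26, whose values are therefore uncertain as gene levels.

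The named RPS4X row made up 71.4% ± 7.7 (SD, n = 3) of all rows described as the S4 protein in yak 6M, 20.4% ± 2.1 in yak 4Y and 33.5% ± 2.4 in cattle-yak. In yak 18M it made up 69.3, 42.7 and 56.05%, again lowest in replicate 2. A second S4 row, ENSBGRG00000011214, ran the opposite way, with FPKMs of 37.7, 52.7 and 59.0 in yak 6M, 145, 122 and 123 in yak 4Y and 98.6, 78.5 and 81.9 in cattle-yak. It was highest in all yak 4Y libraries and reached 98.0 in yak 18M replicate 2. Another, ENSBGRG00000003349, was at 19.1 to 45.6 FPKM in cattle-yak and at no more than 2.83 in any yak library. Summed over all S4 rows, FPKM was 333 ± 24 in yak 6M, 300.2 ± 60 in yak 18M, 198 ± 18 in yak 4Y and 311 ± 11 in cattle-yak. With the counts of these rows added, the rise in cattle-yak against yak 4Y was 0.64 ± 0.12 in place of 1.36 and still passed the test (edgeR adjusted p = 0.0019). Fits of the named row alone gave an adjusted p from 1.1e-12 (DESeq2) to 0.0091 (edgeR over all 12 libraries).

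For L26 the named row was a minor part. It made up 6.24% ± 0.35 of the L26 rows in yak 6M, 19.2% ± 4.0 in yak 4Y and 7.45% ± 0.45 in cattle-yak, and in yak 18M it made up 4.98, 15.9 and 4.98%. The main row without a symbol, ENSBGRG00000007087, lay between 245 and 329 FPKM in all 12 libraries, and the group means of 267, 309, 299.9 and 286 differed little beside the range within yak 6M. A smaller row, ENSBGRG00000014439, was at 118, 98.0 and 106 FPKM in yak 4Y and at 74.4, 65.5 and 66.0 in cattle-yak, lower without overlap like the named row. With the rows added, L26 fell by 0.45 on the log2 scale in cattle-yak against yak 4Y (SE 0.12, edgeR adjusted p = 0.0098). Fits of the named row alone gave a smaller adjusted p, down to 2.8e-14 with DESeq2. The change from yak 18M to yak 4Y became -0.04 ± 0.17, so the difference of the named row between these ages was not seen in the total of scaled counts. Relative to the median of 26 members, the L26 rows summed to 111, 181 and 119% in yak 18M replicates 1, 2 and 3. They summed to 202 to 254% in yak 4Y and 93.8 to 106% in cattle-yak.

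With all copies added, 17 members were still higher and 2 lower in cattle-yak against yak 4Y, where 31.5% and 34.2% of all genes were.

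**Figure D5:**
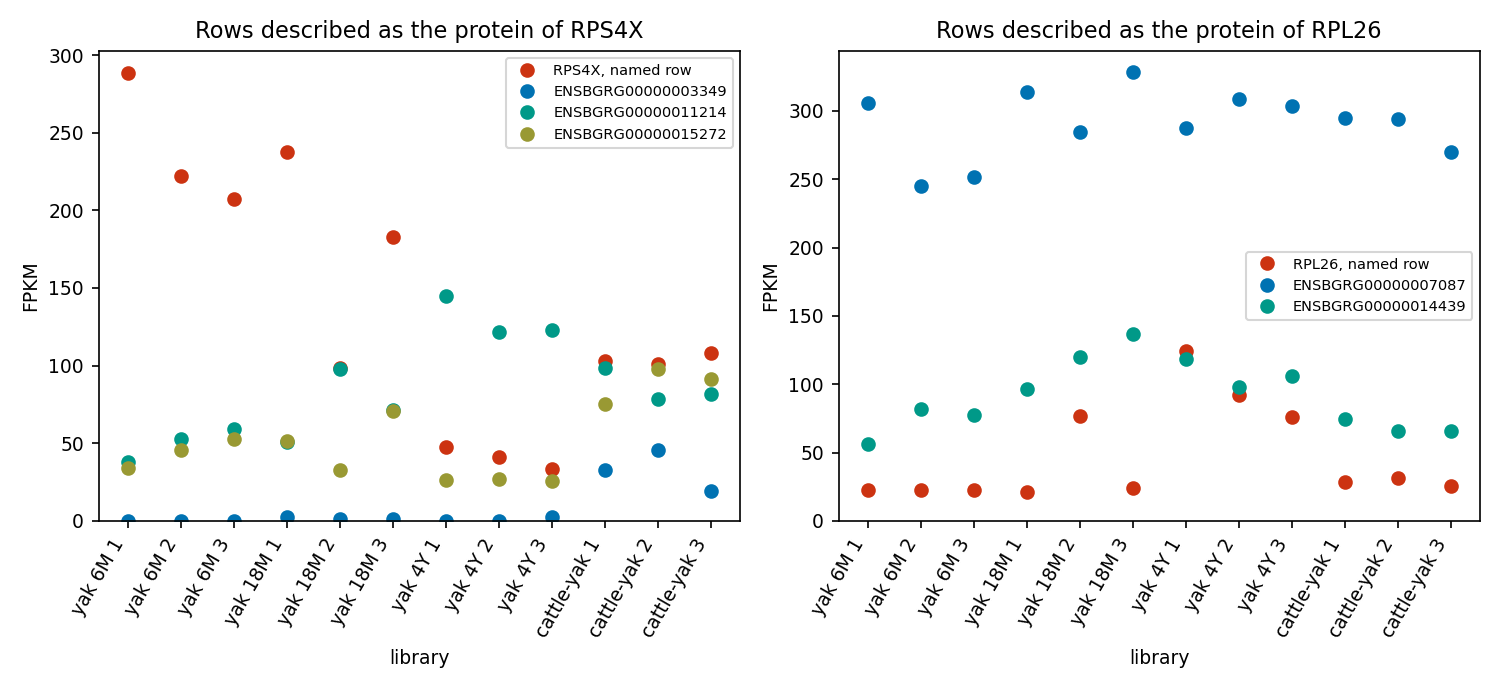
FPKM in 12 libraries of the rows described as the protein of RPS4X (left) and of RPL26 (right), with the named row in red and rows without a symbol in other colours; axes start at 0. The named RPS4X row is highest in yak 6M while ENSBGRG00000011214 is highest in yak 4Y, and ENSBGRG00000007087 stays between 245 and 329 FPKM while the named RPL26 row reaches 76.1 or more in 4 libraries.

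Other parts of the pathway were counted in the same tests. Of 2 tested core ribosomal proteins whose symbols fall outside the rule, 1 was higher and 1 lower in cattle-yak against yak 4Y. Of 28 ribosome assembly factors tested, 16 were higher and 1 lower in cattle-yak against yak 4Y, with a median log2 fold change of 0.53. BYSL, which matures the small subunit, rose by 1.61 ± 0.13 and MRTO4, which holds the place of the stalk protein RPLP0, by 1.31 ± 0.13, while PNO1, a small subunit factor, fell by 0.74 (SE 0.17). Of 9 regulators of ribosome production, 6 were higher, and the largest rise was that of UBTF, a factor of rRNA transcription, from 29.0 to 152 mean FPKM (2.36 ± 0.15, edgeR adjusted p = 4.8e-06). MYC rose from 1.15 to 3.98, whereas MTOR, the growth kinase, fell from 23.2 to 12.6. Of 5 chaperones of single ribosomal proteins, 3 were higher and 1 was lower. Among 58 mitochondrial ribosomal proteins, 37 were higher and 6 lower, with a median of 0.63. These counts stand beside the 31.5% and 34.2% of all genes that were higher and lower.

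Of the 102 genes of these 5 lists, edgeR called 0 between yak 18M and yak 6M, with 13 at an unadjusted p below 0.05 (25.8% of all genes) and 5 called by DESeq2 (6.2% of all genes as higher and 4.92% as lower). It also called 0 between yak 4Y and yak 18M, with 40 at an unadjusted p below 0.05 (35.4% of all genes) and 20 called by DESeq2 (7.37% and 12.2%). In cattle-yak against yak 6M, 12 of the 28 assembly factors were higher and 3 lower, and 28 of the 58 mitochondrial ribosomal proteins were higher and 8 lower, beside 28.7% and 28.9% of all genes. The medians were 0.25 and 0.39, against -0.32 for the cytosolic members, and scaling by library size moves the reference by 0.52 as above.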

How the data were processed

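Ribo-seq of 12 testis libraries, 3 per group, was analysed. The authors removed rRNA reads and aligned RFs to the yak genome (BosGru 3.0). They made the expected count of each gene with RSEM and deposited this expected count unnormalized. The FPKM values were computed by the authors from these counts, gene length and library total. These steps are described for yak 4Y and cattle-yak. Hybrid reads were aligned to the yak genome, and reads of near-identical copies are divided by RSEM. Columns of the authors' comparisons (fold changes, p-values) and 2 tables of group means were not used.

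Groups followed the labels, and the expected counts were rounded to whole numbers before the tests. Low counts were filtered (filterByExpr), and edgeR 4.0.16 (R 4.3.3) with TMM scaling was used for the tests, using the 6 libraries compared and Benjamini-Hochberg adjustment over all genes. The SE is the log2 fold change over the square root of F. A p-value covers the spread between 3 animals and their library preparation. Scripts were tested on simulated data. Alternatives used DESeq2 1.42.0, limma 3.58.1, other scalings, no filter, added copies, the replicate block and each library left out. Python 3.11.15 made the tables.

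Genes with values in the text are members with a named role, the 3 highest and 3 lowest by level and by fold change, and others chosen after their values were seen (all members past the test, for example). Members and lists were chosen with earlier results of these data known. Counting noise did not account for the spread within groups (chi-square per degree of freedom at least 26.4). Sequences and positions were not used here. Single values of a few genes that meet these rules are not reported here.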

Additional observations from a re-analysis of the deposited data

How the results depend on the processing

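Of the counts of members called, most stayed within 1.5 times the value reported. In cattle-yak against yak 4Y, the fit over all 12 libraries gave 11 higher and 1 lower (26% and 27.4% of all genes), and with copies added 0 DTGs were lower (27%). In yak 4Y against yak 18M, DESeq2 gave 10 lower and 8 lower DTGs (12.2% and 10.2%), and the fit over all 12 libraries gave 1 higher and 16 lower (10.2% and 21.6%), with 1 and 9 DTGs (6.63% and 14%). In cattle-yak against yak 6M, library size alone gave 11 higher, 4 lower and 2 lower DTGs (45.2%, 16.7% and 12%), limma on log2(FPKM + 1) gave 12, 4 and 2 (37.6%, 13.5% and 6.94%), and limma on log2(FPKM + 0.1) gave 11, 4 and 2 (38.2%, 13.7% and 10.2%).

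Leaving out each library in turn gave 13 to 19 higher and 1 to 3 lower members in cattle-yak against yak 4Y (7 to 9 and 1 to 1 DTGs), 0 to 1 higher and 0 to 20 lower in yak 4Y against yak 18M (0 to 1 and 0 to 12 DTGs), and 0 to 3 higher and 8 to 13 lower in cattle-yak against yak 6M (3 to 5 lower DTGs). The 20 came without yak 18M replicate 2 and the 3 higher without yak 6M replicate 1. RPL26 ranged from -0.28 to 0.73 in yak 18M against yak 6M. In yak 4Y against yak 18M, RPL3L ranged from -0.19 to 0.54, its share of L3 from -0.056 to 0.15 percentage points, and RPS21 from -0.14 to 0.14.

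Of the 28 members, 1 turned its direction under at least 1 other scaling or test in cattle-yak against yak 4Y, 15 in yak 18M against yak 6M, 3 in yak 4Y against yak 18M and 9 in cattle-yak against yak 6M. In yak 4Y against yak 18M, RPL26 was at -0.037 with copies added, and RPS21 was at 0.023 with DESeq2, 0.021 with RLE, 0.14 with library size alone, and 0.13 with limma at either pseudocount. The cause was not tested.

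Replicate numbers did not pair the libraries. Deviations of same-numbered libraries correlated at -0.14 to 0.099, and 0 to 3 of 6 libraries correlated best with their own number. With the replicate number as a block, 16 members were higher and 2 lower in cattle-yak against yak 4Y (30.2% and 33% of all genes), and 9 were lower in cattle-yak against yak 6M (25%).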
